A study of Mus musculus with 8 samples.

Results

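IL-4-type alternative activation genes are described here in bone marrow-derived dendritic cells (BMDCs), dendritic cells (DCs) grown in culture from mouse bone marrow. The 8 genes Il4ra, Stat6, Pparg, Arg1, Retnla, Mgl2, Tgm2 and Ear2 were chosen by name, as genes tied to the IL-4 response of myeloid cells, from the 23356 genes of the deposited table. All 8 had a usable value in every group and reached 1 FPKM in 1 group or more, as 11397 genes did. FPKM is the number of fragments corrected for transcript length and library size, so it can be set side by side between genes.

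The study asked how DCs respond to microtubule loss and which part of that response needs GEF-H1, a microtubule-bound exchange factor for RhoA encoded by Arhgef2. RNA was sequenced from 8 libraries, 2 for each of 4 groups: WT and GEF-H1-/- (Arhgef2-KO) BMDCs, mice of C57BL/6 background by the labels and C57BL/6N by the study's methods, left without treatment (control) or given 100 nM ansamitocin-P3, a maytansine-type drug that destabilizes microtubules, with RNA taken at 5 h. All 4 groups had been cultured for 6 days with GM-CSF at 10 ng/ml and IL-4 at 10 ng/ml, so no group lacked IL-4. The cells were the floating and loosely attached cells of such cultures, the knockout was in the mouse and not only in DCs, and the sources do not say whether the libraries of a group came from separate mice. Mice in the study's experiments were matched for sex and between 8 and 16 weeks of age, and the labels give no age for these libraries.

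IL-4 binds a receptor that contains IL-4Rα, the product of Il4ra. Janus kinases on the receptor then phosphorylate STAT6, which enters the nucleus and binds DNA elements in which TTC and GAA half-sites are separated by a short spacer. In macrophages and in DCs derived from monocytes this program is known as alternative activation, and arginase 1, the secreted protein RELMα (Retnla), the lectin CD301b (Mgl2) and transglutaminase 2 are among its common readouts, while PPARγ is a nuclear receptor that works with STAT6.

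The promoter windows of Retnla, Mgl2 and Ear2 are shown because these abundant genes behaved differently in the data: Retnla differed with genotype, Ear2 with the drug in WT DCs, and Mgl2 with neither beyond its intervals. The sequences are from RefSeq on GRCm38.p6, plus strand, 250 bases before to 50 bases after the annotated start, and capitals mark TTCNNNNGAA, the palindrome with a spacer of 4 bases that STAT6 binds.
Retnla (chr16:48842359-48842658): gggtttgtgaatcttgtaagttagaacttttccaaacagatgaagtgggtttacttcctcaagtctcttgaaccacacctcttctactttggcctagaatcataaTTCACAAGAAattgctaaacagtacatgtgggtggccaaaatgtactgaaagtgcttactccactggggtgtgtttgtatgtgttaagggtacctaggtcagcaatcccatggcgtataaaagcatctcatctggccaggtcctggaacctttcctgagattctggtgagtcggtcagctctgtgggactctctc
Mgl2 (chr11:70130107-70130406): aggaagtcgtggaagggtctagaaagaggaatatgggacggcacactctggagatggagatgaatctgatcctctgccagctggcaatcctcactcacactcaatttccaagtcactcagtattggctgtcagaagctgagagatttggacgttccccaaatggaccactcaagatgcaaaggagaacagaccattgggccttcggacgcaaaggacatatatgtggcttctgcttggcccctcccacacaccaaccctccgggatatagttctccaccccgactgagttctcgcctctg
Ear2 (chr14:44102404-44102703): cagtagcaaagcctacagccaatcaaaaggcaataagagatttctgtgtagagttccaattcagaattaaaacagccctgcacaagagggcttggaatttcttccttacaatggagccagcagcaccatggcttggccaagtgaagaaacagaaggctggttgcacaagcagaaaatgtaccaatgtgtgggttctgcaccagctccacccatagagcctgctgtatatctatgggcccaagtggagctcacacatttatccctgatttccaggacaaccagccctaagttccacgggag

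RefSeq windows were at hand for 6 of the 8 genes, 8 windows in all because Pparg had 3, and none was used for Arg1 and Tgm2. The palindrome, which reads the same on both strands, was present only in the Retnla window among these 8, as TTCACAAGAA at positions -145 to -136 from the RefSeq start (chr16:48842464-48842473). It was present in 2284 of all 32851 windows (6.95%), so a match among 8 windows is a description and shows no binding. None of the 8 windows held the shorter STAT palindrome TTCNNNGAA (8.30% of all windows), the AP-1 element TGANTCA (7.81%) or, on either strand, AGGTCANAGGTCA, the direct repeat bound by PPAR and RXR (0.0396%). Ear2 and Mgl2 thus share no searched element within these windows, which say nothing about more distant elements.

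Cuffdiff had merged the 2 libraries of each group, so that a gene has a single FPKM per group with the bounds of a 95% interval. Values of single libraries, and with them an SD, an n or a test between groups, cannot be had from such values. Differences are therefore given as the log2 ratio of FPKM + 1 with a half-width that combines the intervals of the groups (±), and a difference is called past the limit when this ratio is over 1 or under -1, a ratio of about 2. Intervals that do not overlap are called apart. In each group 112 to 137 genes had an FPKM outside their own interval, none of them among the 8 genes, and this is stated where a named gene is concerned. Arhgef2 itself measured 42.3 FPKM in control and 45.9 in treated WT DCs, against 4.59 and 4.16 in GEF-H1-/- DCs. The WT columns carry no genotype in their names and were matched by elimination, and the Arhgef2 levels run the same way. All 10 dendritic cell markers examined were measured, led by Cd74, H2-Aa and H2-Ab1, genes of MHC class II presentation, and the marker levels summed to 5707 FPKM in control and 7388 in treated WT DCs and to 4788 and 5268 in GEF-H1-/- DCs. All FPKM together came to 1.21 times the control WT sum in treated WT DCs and to 0.983 and 1.01 times in the GEF-H1-/- groups. Scaling all groups to the same sum moved the median of all genes by -0.24 in the drug comparison of WT DCs. In the treated genotype comparison the median moved by 0.23. Calls of the 8 genes that depend on this scaling are named below. Calls of single other genes were not rechecked under it. Those with a ratio near the limit or with intervals only narrowly apart may depend on it.

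**Figure D1:**
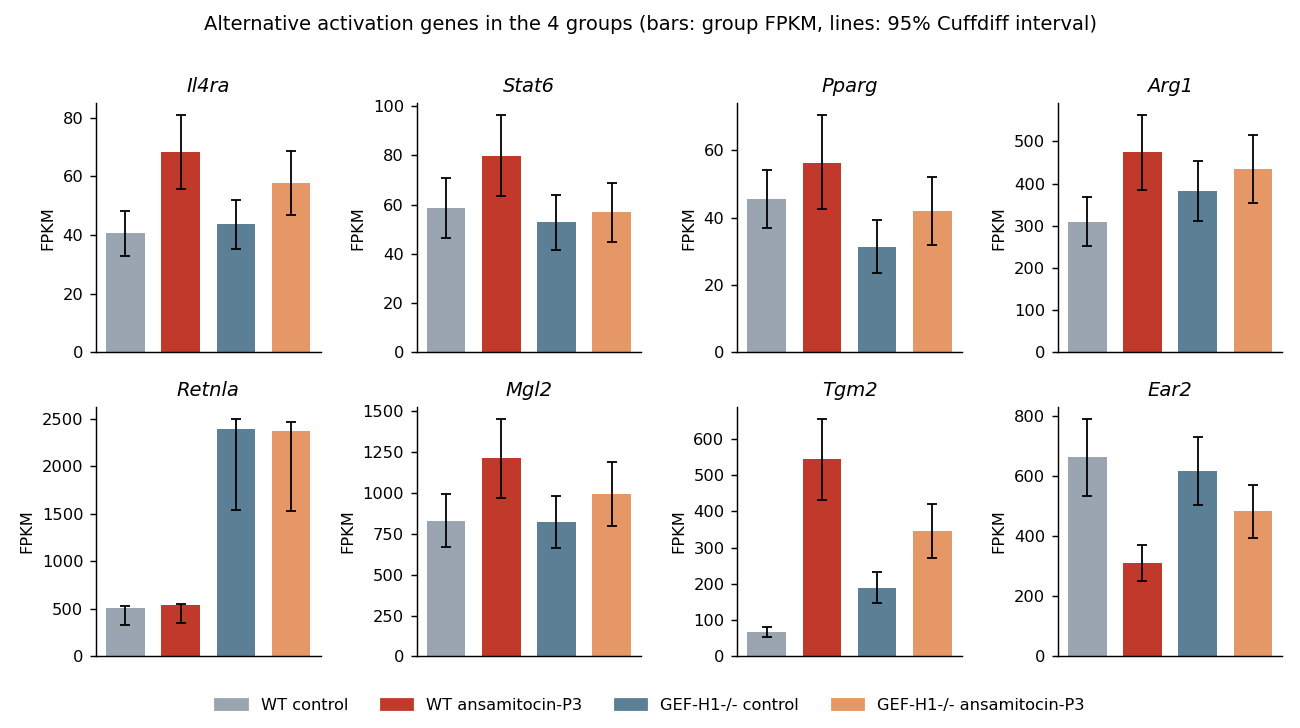
FPKM of the 8 genes in control and ansamitocin-P3-treated WT and GEF-H1-/- DCs, 1 panel per gene with its own axis from 0; bars are the group values and lines the 95% Cuffdiff intervals. Retnla is at 2397 and 2378 FPKM in the GEF-H1-/- groups and at 510.0 and 537 in the WT groups, Tgm2 is highest in treated WT DCs, and Ear2 is lowest there.

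The receptor gene Il4ra measured 40.6 FPKM in control WT DCs (95% interval 32.9 to 48.4), 68.4 in treated WT DCs (55.8 to 81.0), 43.6 in control GEF-H1-/- DCs (35.2 to 52.1) and 57.8 in treated GEF-H1-/- DCs (46.8 to 68.8). It was higher after the drug in WT DCs by 0.74 ± 0.38 on the log2 scale, a 1.68-fold difference with the intervals apart. In GEF-H1-/- DCs the difference was 0.40 ± 0.39 with overlapping intervals. The genotypes overlapped in control and in treated cells, with differences of 0.10 ± 0.39 and -0.24 ± 0.38.

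Stat6, the signal transducer and transcription factor downstream of the receptor, measured 58.7 FPKM in control WT (46.4 to 70.9), 79.9 in treated WT (63.3 to 96.4), 52.8 in control GEF-H1-/- (41.7 to 64.0) and 56.8 in treated GEF-H1-/- DCs (44.9 to 68.8). All 4 intervals overlapped in each comparison of groups, and the differences ran from -0.48 ± 0.43 between genotypes after treatment to 0.44 ± 0.43 for the drug in WT DCs. The table places Stat6 and Nab2, a gene next to it that encodes a corepressor of EGR factors, at the same locus of 23718 bases (chr10:127642986-127666703), and Nab2 was listed at 11.5, 23.0, 9.62 and 11.0 FPKM in the same order of groups. Whether fragments were divided between them by strand is not given in the sources used here.

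Pparg, the nuclear receptor that senses fatty acids and drives lipid handling genes, measured 45.4 FPKM in control WT (36.8 to 54.1), 56.2 in treated WT (42.6 to 70.5), 31.4 in control GEF-H1-/- (23.5 to 39.2) and 41.8 in treated GEF-H1-/- DCs (31.9 to 52.1). Its intervals overlapped in every comparison. The value was lower in GEF-H1-/- than in WT DCs by 0.52 ± 0.45 on the log2 scale in control and by 0.42 ± 0.50 in treated cells, neither past the limit. The receptor and the pair of transcription factors thus held moderate levels in all groups, and no difference among them reached a ratio of 2.

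Arg1, which encodes arginase 1 and splits arginine into ornithine and urea, measured 309.7 FPKM in control WT (251 to 368), 474 in treated WT (385 to 563), 382 in control GEF-H1-/- (311 to 453) and 435 in treated GEF-H1-/- DCs (354 to 516). The drug difference in WT DCs was 0.61 ± 0.39, or 1.53-fold, with the intervals apart. The difference in GEF-H1-/- DCs was 0.19 ± 0.38, and the genotypes overlapped without drug (0.30 ± 0.39) and with it (-0.12 ± 0.38). Arg1 was an abundant transcript in all 4 groups, above at least 97.8% of the genes tested.

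Retnla, which encodes a secreted resistin-like protein, showed the largest genotype difference of the 8 genes in both states. It measured 510.0 FPKM in control WT DCs (328 to 527), 537 in treated WT DCs (347 to 556), 2397 in control GEF-H1-/- DCs (1546 to 2503) and 2378 in treated GEF-H1-/- DCs (1527 to 2473). Both GEF-H1-/- values lay above both WT values with the intervals far apart. The ratio of GEF-H1-/- to WT was 4.70-fold in control (log2 2.23 ± 0.49) and 4.43-fold in treated cells (2.14 ± 0.49). Among 11397 genes these differences ranked 31st and 33rd from the highest, and in both GEF-H1-/- groups Retnla was the 19th most abundant gene. The drug made no difference beyond the intervals in either genotype, with 0.08 ± 0.48 for WT and -0.01 ± 0.49 for GEF-H1-/- DCs. The Retnla value sat close to the upper end of its own interval in each group, with 88.9% to 91.6% of the interval below it, unlike the other 7 genes, whose values were near the middle.

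Mgl2, which encodes the galactose-type lectin CD301b, was the most abundant of the 8 genes in both WT groups. It measured 831 FPKM in control WT (667 to 993), 1212 in treated WT (970 to 1455), 822 in control GEF-H1-/- (662 to 982) and 994 in treated GEF-H1-/- DCs (798 to 1189). In WT DCs the drug difference was 0.54 ± 0.41, in GEF-H1-/- DCs it was 0.27 ± 0.40, and the intervals overlapped in both genotypes. The control groups were nearly equal (-0.01 ± 0.40), and the treated groups differed by -0.29 ± 0.41 with overlapping intervals. Mgl2 was thus an abundant transcript, like Retnla, without the genotype difference of Retnla.

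Tgm2, which encodes transglutaminase 2, an enzyme that crosslinks proteins, responded most to the drug. It measured 67.1 FPKM in control WT (53.1 to 81.2), 544 in treated WT (432 to 656), 189.7 in control GEF-H1-/- (148 to 232) and 345 in treated GEF-H1-/- DCs (271 to 419). Each of the 4 intervals lay apart from the others. The drug difference was 8.11-fold for WT (3.0 ± 0.43) and 1.82-fold for GEF-H1-/- DCs (0.86 ± 0.45), and the difference between these was 2.14 ± 0.62, the 41st highest of 11397 genes. Without drug Tgm2 was 2.83-fold higher in GEF-H1-/- than in WT DCs (1.49 ± 0.44). With drug it was lower in GEF-H1-/- DCs by 0.66 ± 0.44, a level 1.58-fold higher in WT, and with all groups scaled to the same sum this last difference was -0.40 and its intervals overlapped. The genotype order of Tgm2 was therefore opposite in control and treated cells, by values that were not tested against the spread between libraries.

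Ear2, which encodes an eosinophil-associated ribonuclease also made by macrophages, was the only one of the 8 genes past the limit in the downward direction. It measured 663 FPKM in control WT (535 to 791), 311 in treated WT (251 to 370), 617 in control GEF-H1-/- (503 to 731) and 483 in treated GEF-H1-/- DCs (394 to 572). In WT DCs the control level was 2.13-fold the treated level (-1.09 ± 0.40), with the intervals apart. In GEF-H1-/- DCs the difference was -0.35 ± 0.38 with overlapping intervals. The treated GEF-H1-/- level was 1.55-fold the treated WT level (0.63 ± 0.39, intervals apart), while the control groups overlapped (-0.10 ± 0.39). The difference between genotypes in the drug's effect was -0.74 ± 0.55.

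Sequence shared with relatives bears on how surely reads belong to a gene. Of the distinct 35-base words, the read length used, in the GENCODE M21 transcripts of Ear2, 378 of 685 (55.2%) also occurred in other genes, chiefly Ear1 (249) and Ear10 (220), and the table places Ear3, whose value had no usable status, at exactly the Ear2 locus (chr14:44102654-44103531). For Mgl2 the count was 442 of 2175 (20.3%), with 383 in Clec10a, its close paralog, and for Retnla it was 23 of 565 (4.07%), all in Retnlg. The other 5 genes shared none. The Ear2 level is therefore uncertain to the extent that reads were divided among the Ear genes, and how this was done is not given in the sources used here.

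**Figure D2:**
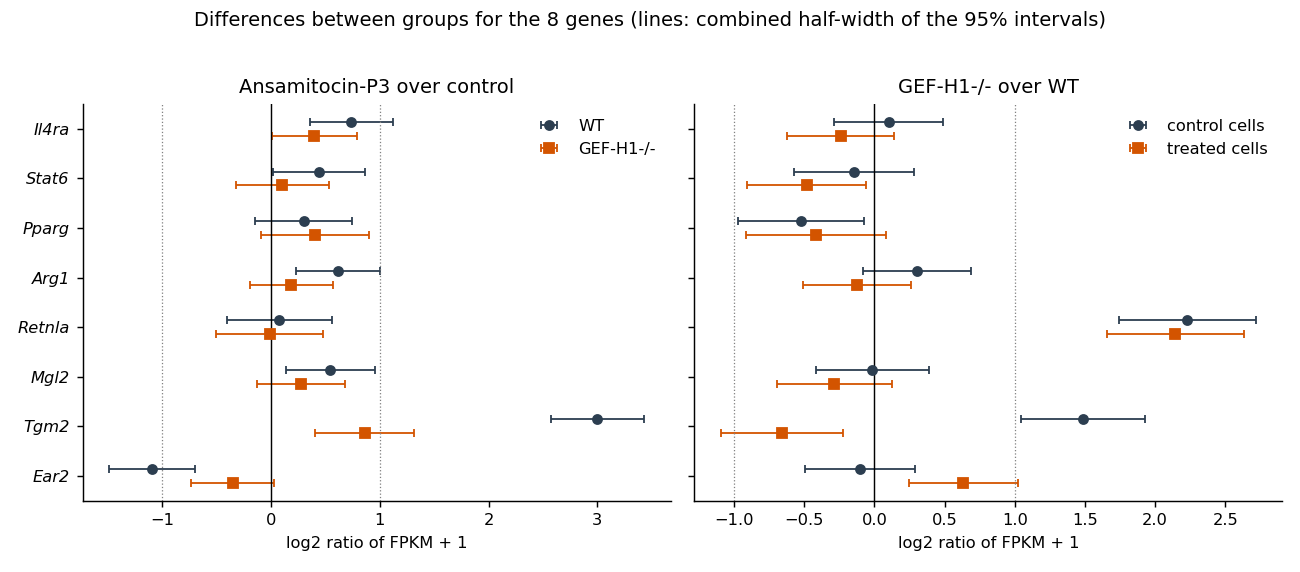
Differences of the 8 genes on the log2 scale of FPKM + 1: left, ansamitocin-P3 over control in WT (circles) and GEF-H1-/- (squares) DCs; right, GEF-H1-/- over WT in control (circles) and treated (squares) cells. Lines are half-widths from the 95% intervals and dotted lines mark -1 and 1; Tgm2 (3.0 against 0.86) and Ear2 (-1.09 against -0.35) differ most between genotypes on the left, and only Retnla is far above 1 in both states on the right.

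Across the 8 genes, the drug left 1 gene past the limit upward in WT DCs (Tgm2) and 1 downward (Ear2), where 3.66% and 1.28% of the 11397 genes were past it. Intervals were apart upward for Arg1, Tgm2 and Il4ra and downward for Ear2, against 9.19% and 7.58% of all genes. With all groups scaled to the same sum only Tgm2 and Ear2 kept their intervals apart, since Arg1 then differed by 0.33 and Il4ra by 0.46. The median difference of the 8 genes was 0.49, beside 0.00 for all genes. In GEF-H1-/- DCs 0 of the 8 genes were past the limit in either direction, against 0.807% of all genes upward and 0.272% downward. Tgm2 was the only gene with intervals apart there, against 2.75% upward and 0.956% downward of all genes, and the median was 0.23 beside -0.01. Among the genes with intervals apart in WT DCs, the GEF-H1-/- difference amounted to 0.286 of the WT difference for Tgm2, 0.305 for Arg1, 0.324 for Ear2 and 0.539 for Il4ra. For Arg1 and Il4ra the drug's effect differed between genotypes by 0.43 ± 0.54 and 0.34 ± 0.54, within the half-widths. For Pparg, whose intervals overlapped, the GEF-H1-/- difference was the larger one, at 1.35 of the WT difference. In the difference between genotypes in the drug's effect, only Tgm2 was past the limit, upward as were 1.36% of all genes, while 0.535% were past it downward.

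Between the control groups Retnla and Tgm2 were higher in GEF-H1-/- DCs past the limit with intervals apart, and 0 of the 8 were lower. Among all genes 1.26% were past the limit upward and 0.614% downward, and intervals were apart for 2.86% and 1.88%. Between the treated groups Retnla alone was past the limit upward and none was downward, where 2.0% and 2.06% of all genes were. Intervals were apart upward for Retnla and Ear2 and downward for Tgm2, against 7.02% and 6.73% of all genes. The medians of the 8 genes were 0.04 in control and -0.26 in treated cells, beside -0.01 and -0.03 for all genes. These comparisons share groups, since each control or treated group enters a drug and a genotype comparison, so they are not independent of each other.

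The order of the levels differed between groups mainly in the places of Retnla, Tgm2 and Ear2. In control WT DCs Mgl2 and Ear2 led with overlapping intervals, followed by Retnla and Arg1, which overlapped, and then by Tgm2, Stat6, Pparg and Il4ra, each overlapping its neighbor. In treated WT DCs Mgl2 stood apart at the top, Tgm2, Retnla and Arg1 followed with overlapping neighbors, and Ear2 stood apart below them. In both GEF-H1-/- groups Retnla stood apart at the top, Mgl2 was next, and Tgm2 came after Mgl2, Ear2 and Arg1. Stat6, Il4ra and Pparg took the last 3 places in these groups and in treated WT DCs, with overlapping neighbors.

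Of 15 other genes of IL-4 and IL-13 signaling, 13 passed the filter, and with the drug in WT DCs 0 of them were past the limit (3.66% upward and 1.28% downward of all genes) while 3 had intervals apart, 1 upward and 2 downward (9.19% and 7.58%). In GEF-H1-/- DCs 0 were past the limit and 0 had intervals apart (0.807% and 0.272%, 2.75% and 0.956%), with a median drug difference of 0.28 for WT and 0.10 for GEF-H1-/- DCs. Cish, a feedback inhibitor of cytokine receptors, was higher in treated than in control WT DCs (191 to 312 FPKM, intervals apart). Ptpn6, the phosphatase SHP-1, was lower (169 to 101), and Socs1, another feedback inhibitor, differed by -0.20 on the log2 scale (179 to 156), with a treated value above its own interval (93.4 to 149). The kinase gene Jak2 measured 201, 259, 195 and 225 FPKM in control WT, treated WT, control GEF-H1-/- and treated GEF-H1-/- DCs. Il4 was the only gene of this list past the limit between genotypes, with 1.28 and 1.80 FPKM in control and treated WT DCs and 4.49 and 5.59 in GEF-H1-/- DCs (log2 1.26 and 1.23, intervals apart in both). The Il4 transcript itself was low in all groups.

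A list of other alternative activation genes held 27 genes, of which 26 had a value and 22 passed the filter. In WT DCs 5 were past the limit upward with the drug (Ch25h, Il1rn, Mmp12, Itgb3 and Pdcd1lg2) and 0 downward, against 3.66% and 1.28% of all genes. In GEF-H1-/- DCs 0 were past it, against 0.807% upward and 0.272% downward of all genes. The median drug difference was 0.37 for WT and 0.20 for GEF-H1-/- DCs. Il1rn, which encodes the IL-1 receptor antagonist, measured 101 FPKM in control and 778 in treated WT DCs, against 197 and 274 in GEF-H1-/- DCs. Mmp12, the macrophage elastase, measured 233, 1520.4, 635 and 951 FPKM in that order. Both had the order of groups seen for Tgm2, with control GEF-H1-/- above control WT DCs and the highest level in treated WT DCs. Pdcd1lg2, which encodes the PD-1 ligand PD-L2, measured 59.1, 133, 59.5 and 83.9 FPKM, and Itgb3, an integrin subunit, measured 25.4, 79.9, 24.9 and 26.3.

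Ch25h, which encodes cholesterol 25-hydroxylase, measured 0.769 FPKM in control and 6.44 in treated WT DCs, against 9.06 and 17.9 in GEF-H1-/- DCs, with intervals apart in all 4 pairwise comparisons made. Between control groups 2 of the 22 genes were past the limit upward (Ch25h and Mmp12) and 0 downward, against 1.26% and 0.614% of all genes, and 9 had intervals apart upward, against 2.86%. Of these 9, Cd209d, Cd209e and F13a1 reached 1 FPKM only in GEF-H1-/- groups, so the filter itself favored that direction for them. Between treated groups 3 were past it upward (Ch25h, Alox15 and F13a1) and 2 downward (Il1rn and Itgb3), against 2.0% and 2.06% of all genes. Alox15, the 12/15-lipoxygenase, was at 25.6 and 18.7 FPKM in control and treated WT DCs and at 42.6 and 45.0 in GEF-H1-/- DCs, and F13a1, the coagulation factor XIII A chain, was at 0.500, 0.505, 1.68 and 2.07. The most abundant genes of the list, the chemokine genes Ccl17 and Ccl22, differed by no more than 0.62 on the log2 scale in any of these comparisons. Ccl17 measured 5778, 6386, 4802 and 5530 FPKM, and Ccl22 2685, 3445, 2010.1 and 2241. RefSeq windows of 20 genes of this list were searched as above, and 6 of 31 windows, from Ccl17, Cd209e, Fcer2a, Il1rn and Pdcd1lg2, held TTCNNNNGAA (6.95% of all windows). AP-1 elements were in the same number, 6 of 31 windows, from Fcer2a, Folr2, Il1rn, Mmp12 and Trem2 (7.81%), TTCNNNGAA was in 3 of 31 (8.30%), and the PPAR repeat was in 0 (0.0396%). The windows of a gene can overlap, and these counts are a description.

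**Figure D3:**
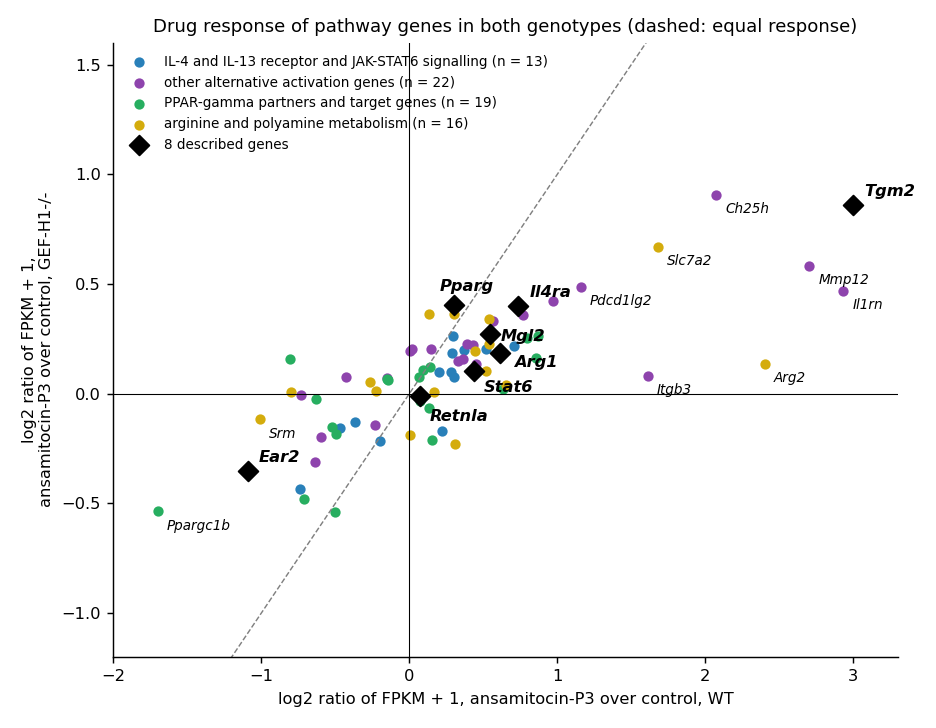
Each point is a gene; the x axis is the log2 ratio of FPKM + 1 of treated over control in WT DCs and the y axis the same in GEF-H1-/- DCs. Diamonds are the 8 genes, colors mark 4 related lists, and the dashed line is an equal response; Tgm2, Il1rn, Mmp12, Ch25h, Arg2 and Slc7a2 lie far to the right and below the line, and Ear2 and Ppargc1b lie on the left.

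Around Arg1, 17 genes of arginine and polyamine metabolism were listed and 16 passed the filter. With the drug in WT DCs 2 were past the limit upward and 1 downward, against 3.66% and 1.28% of all genes. In GEF-H1-/- DCs 0 were past it, against 0.807% upward and 0.272% downward of all genes. Arg2, the mitochondrial arginase, measured 6.75 FPKM in control and 40.0 in treated WT DCs, against 8.93 and 9.91 in GEF-H1-/- DCs. Slc7a2, which encodes the cationic amino acid transporter CAT2, measured 24.2, 79.7, 44.3 and 71.1 FPKM. Srm, spermidine synthase, was lower with the drug in WT DCs and higher in GEF-H1-/- than in WT DCs in both states, with 63.9, 31.2, 113 and 104 FPKM. Odc1, ornithine decarboxylase, which uses the product of arginase, measured 141, 175, 154 and 131 FPKM with overlapping intervals in each comparison.

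Around Pparg, 22 partners and targets were listed and 19 passed the filter. In WT DCs 0 were past the limit upward with the drug and 1 downward (3.66% and 1.28% of all genes), namely Ppargc1b, which encodes the coactivator PGC-1β and measured 6.18, 1.21, 5.48 and 3.47 FPKM in control WT, treated WT, control GEF-H1-/- and treated GEF-H1-/- DCs. Intervals were apart upward for 4 and downward for 4 of the 19 genes, against 9.19% and 7.58% of all genes. The fatty acid transporter gene Cd36 measured 194, 338, 194 and 231 FPKM, and Plin2, which coats lipid droplets, 139.8, 254, 144 and 161. Lpl, lipoprotein lipase, differed in the other direction with 713, 407, 716 and 798 FPKM. The list had a median drug difference of 0.07 for WT and 0.02 for GEF-H1-/- DCs, with 10 genes above 0 and 9 below in each.

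Relatives of the 8 genes were set beside them. In the STAT family 0 of 6 genes were past the limit with the drug in either genotype. Of all genes 3.66% upward and 1.28% downward were past it in WT DCs, and 0.807% and 0.272% in GEF-H1-/- DCs. Intervals were apart upward with the drug for 2 of the 6 in WT DCs (9.19% of all genes) and 1 in GEF-H1-/- DCs (2.75%). Stat3, which transmits IL-6 and IL-10 signals, was higher in treated than in control WT DCs (40.4 to 60.8 FPKM, log2 0.58). Stat4 was higher with the drug in WT DCs (20.8 to 36.9 FPKM, log2 0.80) and in GEF-H1-/- DCs (19.9 to 29.5 FPKM, log2 0.54). Among transglutaminase genes 3 of 8 passed the filter, and Tgm1 measured 3.43, 16.3, 3.05 and 5.94 FPKM in control WT, treated WT, control GEF-H1-/- and treated GEF-H1-/- DCs. Tgm1 was thus higher with the drug in both genotypes with intervals apart, but unlike Tgm2 it did not differ between the control groups beyond its intervals. Retnlg, the only other resistin-like gene that passed the filter, measured 18.6, 24.4, 36.2 and 37.5 FPKM, with intervals apart between the control groups (log2 0.92).

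The Ear ribonuclease family did not move as 1 group. Of 12 listed, 8 had a value and 6 passed the filter. Ear1 measured 213, 142, 42.3 and 40.0 FPKM in control WT, treated WT, control GEF-H1-/- and treated GEF-H1-/- DCs, and Ear6 307, 231, 97.6 and 89.1. Both were lower in GEF-H1-/- than in WT DCs past the limit in control and in treated cells, while Ear11 was higher, with 315, 272, 784 and 869 FPKM. Rnase6, a ribonuclease of the same superfamily, was the only other one past the limit in the WT drug comparison, downward like Ear2, with 121, 48.0, 93.9 and 79.8 FPKM. Ear1 and Ear6 are among the genes that share 35-base words with Ear2 (249 and 27).

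The genotype differences of Retnla stood beside differences in markers of several cell types. Of the 10 dendritic cell markers, 8 had lower values in GEF-H1-/- DCs in control cells and 6 in treated cells. Their medians were -0.27 and -0.33, beside -0.01 and -0.03 for all genes. Intervals were apart only for Kmo in control cells, downward (1.88% of all genes), and for Flt3 in treated cells, upward (7.02%). In bulk samples, fewer cells of a type and less RNA per cell cannot be told apart. Of 7 macrophage markers all were measured, their levels summed to 171 FPKM in control and 134 in treated WT DCs and to 275 and 255 in GEF-H1-/- DCs, and 2 were past the limit upward in GEF-H1-/- DCs in both states, against 1.26% and 2.0% of all genes. These were the complement genes C1qa (4.22, 2.16, 29.2 and 26.1 FPKM) and C1qb (26.0, 17.9, 67.4 and 64.1). Intervals were apart upward for 3 of the 7 in control and 3 in treated cells, against 2.86% and 7.02% of all genes. Between the control groups Emr1, Fcgr1 and Mertk differed by only 0.04, 0.05 and -0.22 with overlapping intervals. Between the treated groups Mertk was apart upward. All 7 basophil and mast cell markers had higher values in GEF-H1-/- DCs in both states, with sums of 190.4, 196, 374 and 360 FPKM. In control cells 3 were past the limit (1.26% of all genes): Fcer1a, which encodes a chain of the high-affinity IgE receptor, the protease gene Prss34, and Il4. In treated cells 3 were past it (2.0%): Fcer1a, Ms4a2 and Il4. Intervals were apart upward for 6 of the 7 in control and 5 in treated cells, against 2.86% and 7.02% of all genes. Those of Mcpt8 overlapped in both states. Il13 of this list reached 1 FPKM only in a GEF-H1-/- group. No defining marker of either list was at 0. The part of these cells in the Retnla difference was not tested.

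Eosinophil markers, which share Ear1 and Ear6 with the ribonuclease family, ran the other way. Their levels summed to 1624 FPKM in control and 1289 in treated WT DCs and to 591 and 548 in GEF-H1-/- DCs, and 4 of the 5 that passed the filter (Epx, Prg2, Ear1 and Ear6) were past the limit downward in GEF-H1-/- DCs in both states, with Ccr3, which reached 1 FPKM only in GEF-H1-/- groups, past it upward. The shares of all genes past the limit downward were 0.614% in control and 2.06% in treated cells. Prg2, major basic protein, was the most abundant with 984, 835, 411 and 382 FPKM. Ear2 did not share this genotype difference in control cells (663 against 617 FPKM). Neutrophil markers summed to 32422, 38285, 21832 and 22240 FPKM. In both states 4 of 7 had intervals apart downward (1.88% and 6.73% of all genes), Camp by the most. Mpo was apart upward (2.86% and 7.02% of all genes). The neutrophil sums are mostly S100a8 and S100a9. The S100a8 value lay above its own interval in each group, as in control WT DCs with 19401 FPKM against an upper bound of 16474. T cell markers summed to 12.97 to 21.3 FPKM, B cell markers to 3.16 to 6.83, and markers of NK and innate lymphoid cells to 54.0 to 125, the last mainly Gzma. Of the 4 NK and innate lymphoid markers that passed the filter, 1 was past the limit downward in GEF-H1-/- DCs in both states (0.614% and 2.06% of all genes). This was Gzma, with 84.4, 100, 32.4 and 29.0 FPKM, while Il7r had higher values. All 4 T cell markers that passed had lower values in both states, with intervals apart in both for Cd8a. With the drug in WT DCs all 5 eosinophil markers had lower values (median -0.41), the direction of Ear2, each with overlapping intervals. No listed marker of basophils and mast cells or of neutrophils had intervals apart in that comparison. Of all genes 9.19% had them apart upward and 7.58% downward. Of 7 macrophage markers 6 had lower values, beside a median of 0.00 for all genes, and 2 had intervals apart downward, against 7.58%. Of these 2, Emr1, which encodes F4/80, measured 35.9 FPKM in control and 20.4 in treated WT DCs, and Mertk, a receptor for apoptotic cells, 5.46 and 0.778. Among the dendritic cell markers Ccr7, the receptor that guides DCs to lymph nodes, was higher with the drug in WT DCs (258 to 602 FPKM), and Kmo and Flt3 were lower with intervals apart. In GEF-H1-/- DCs the drug differences of Ccr7 (234 to 405 FPKM), Kmo (22.2 to 12.8) and Mertk (4.56 to 2.53) ran the same way with intervals apart. Those of Flt3 and Emr1 had overlapping intervals there. Of all genes 2.75% had them apart upward and 0.956% downward in GEF-H1-/- DCs. The part of these cells in the drug differences was not tested.

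**Figure D4:**
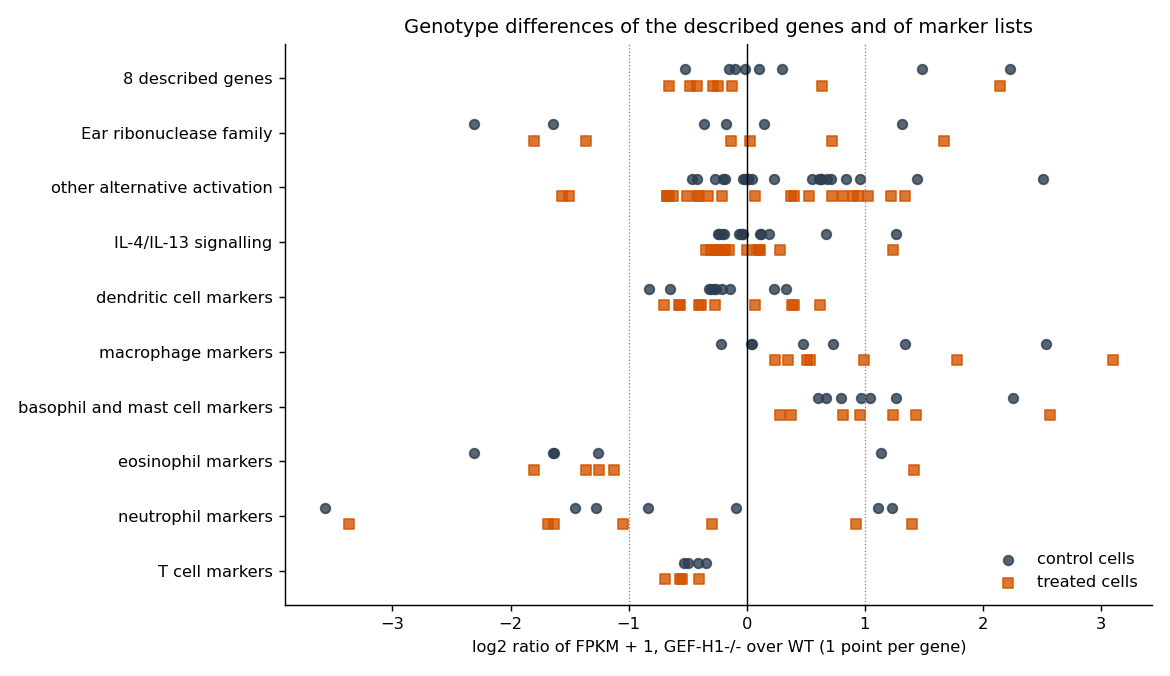
Each point is 1 gene of a list that passed the filter; the x axis is the log2 ratio of FPKM + 1 of GEF-H1-/- over WT DCs, in control (circles) and treated (squares) cells, and dotted lines mark -1 and 1. Retnla is the rightmost of the 8 genes in both states (2.23 and 2.14), the basophil and mast cell markers all lie to the right of 0, and most eosinophil markers lie left of -1.

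The genes whose levels followed those of Retnla, Tgm2 and Ear2 most closely over the 4 groups were found by the distance between centered log2(FPKM + 1) profiles among genes with a mean of at least 5 FPKM. For Retnla they were Wfdc17 (distance 0.164), Mucl1 (0.252) and Ctsk (0.334). Wfdc17, which encodes a small secreted protein of the WAP family, measured 22.3, 27.2, 114 and 122 FPKM, and Ctsk, the protease cathepsin K, 1.62, 1.61, 8.36 and 8.65. For Tgm2 they were Mmp12 (0.290), the chemokine gene Ccl7 (0.602) and Csf1, which encodes M-CSF (0.711), and Csf1 measured 32.3, 176, 54.8 and 86.1 FPKM. Ccl7 measured 10.0, 62.7, 25.8 and 70.6 FPKM, so unlike Tgm2 its value was not lower in GEF-H1-/- than in WT DCs after treatment. For Ear2 they were Isoc1 (0.0629), Bmyc (0.0771) and Pld4 (0.0896), and Pld4, an endolysosomal exonuclease, measured 113, 57.4, 112 and 86.3 FPKM. These distances rest on 4 pooled values per gene and are a description.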

How the data were processed

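RNA-seq libraries were prepared by the authors from polyadenylated RNA with a stranded kit and sequenced as 35-base paired ends. The deposited table holds FPKM computed by the authors, 1 value per gene and group with the bounds of a 95% interval and a status, and the submitters' processing notes name Cuffdiff 1.05 and the build mm10. The aligner, annotation and strand setting behind this table are not given in the sources used here. The other deposited values used are the interval bounds, in FPKM. Group columns were matched to samples by name, and the columns without a genotype in their name were taken as WT by elimination. The table has 0 further columns of sample values.

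Of 23356 genes, 106 with low data and 1 with too many data in Cuffdiff were left out, and at least 1 FPKM in at least 1 group was required, which left 11397 genes. The log2 ratio of FPKM + 1 (a pseudocount of 1 FPKM, which understates changes of low genes) was computed between groups, with a limit of 1 in either direction. The error given with a difference is the root of the summed squares of 0.5 of each log2 interval width. The design named limma for tables with single libraries. The table holds pooled values, so limma was not run and no test, SD or n is given. Depth is unknown, because fragment numbers cannot be read back from FPKM, and the precision is that of the Cuffdiff intervals.

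The 18 gene lists, with the members as 1 of them, were chosen with earlier results of these data known. Named genes are the 8 members, Arhgef2, up to 4 genes per list by mean FPKM, listed genes past the limit with intervals apart in a pairwise comparison, and the 3 genes closest in profile to each member that spans at least 1 on the log2 scale. Counts of 5 or fewer genes are named in full where they fall outside this rule, after their values were seen. All 8 members matched RefSeq by symbol. The computation was tested on simulated data. Python 3.11.15, numpy 2.4.6, pandas 2.3.3 and matplotlib 3.10.9 were used. The alternatives changed the pseudocount to 0.1 or 5 FPKM, dropped the filter or raised it to 5 FPKM, and tried scaling to the median ratio over genes or to the same sum and a limit of a ratio of 1.5.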

Additional observations from a re-analysis of the deposited data

Results flagged for a closer look

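Tgm2 was singled out because its genotype difference ran in opposite directions in control and treated cells, with the Cuffdiff intervals apart in both: it was higher in GEF-H1-/- than in WT DCs without the drug (189.7 against 67.1 FPKM) and lower with it (345 against 544 FPKM). The drug difference in WT exceeded that in GEF-H1-/- DCs by 2.14 on the log2 scale of FPKM + 1. The difference was not tested, since each group has 1 pooled value. With all groups scaled to the same sum of FPKM, the intervals of the treated groups overlapped.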

How the results depend on the processing

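All 40 values of the 8 genes (5 comparisons each) stayed within their half-widths under pseudocounts of 0.1 and 5 FPKM and under both scalings, and under each of these settings and without or with a stricter filter the genes past the limit were Tgm2 and Ear2 (drug in WT), none (drug in GEF-H1-/- DCs), Retnla and Tgm2 (control groups), Retnla (treated groups) and Tgm2 (difference in the drug's effect). With the groups scaled to the same sum of FPKM, the count of the 8 genes with intervals apart for the drug in WT DCs was 2 in place of 4, and Tgm2 lost its intervals apart between treated groups. That scaling also moved the split of all genes past the limit to 259 upward and 406 downward for the drug in WT DCs (417 and 146 as deposited), to 412 and 124 between treated groups (228 and 235) and to 94 and 113 for the difference between genotypes in the drug's effect (155 and 61). Counts of all genes past the limit depended on the pseudocount: 563 for the drug in WT, 123 for the drug in GEF-H1-/- DCs, 214 between control groups, 463 between treated groups and 216 for the difference in the drug's effect became 956, 212, 372, 801 and 387 with 0.1 FPKM, and 318, 77, 101, 206 and 123 with 5 FPKM. With a limit of a ratio of 1.5 they were 2017, 454, 600, 1687 and 935, and the counts of the 8 genes were 4, 1, 2, 3 and 2 in place of 2, 0, 2, 1 and 1. No paired analysis was possible because the table holds 1 pooled value per group. For the same reason no library was left out in turn, and an unequal library within a group cannot be seen. The depth is unknown, and genes with low FPKM have the widest intervals.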

Other observations

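Genes of the GM-CSF receptor, the other cytokine added to every culture, were measured beside those of IL-4. Csf2rb, the shared signaling chain of the GM-CSF, IL-3 and IL-5 receptors, measured 218 FPKM in control and 337 in treated WT DCs, against 203 and 207 in GEF-H1-/- DCs, with intervals apart for the drug in WT DCs and between treated groups. Csf2ra, the GM-CSF-binding chain, measured 94.5, 136, 122 and 148 FPKM with overlapping intervals in each comparison. Of the 4 listed genes with a value, 0 were past the limit in the drug comparisons. Of all genes 3.66% upward and 1.28% downward were past it in WT DCs, and 0.807% and 0.272% in GEF-H1-/- DCs.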
